A study of Bos taurus with 20 samples.

Results

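KRT14 (ENSBTAG00000007583), LYPD3 (ENSBTAG00000018077) and KDR (ENSBTAG00000000782) are markers of basal keratinocytes, of differentiating keratinocytes and of blood vessel endothelium. They were taken by identifier, 3 of the 24616 genes counted in each library, to describe how much of each kind of transcript the rumen epithelium libraries held. RNA-seq had been done on papillae cut from the ventral sac of the rumen of Hereford x Aberdeen Angus steers, all slaughtered after a barley and oat based finishing diet with an ionophore, with 1 library for each of 20 steers. The study asked how the tissue differs with residual feed intake (RFI), the feed an animal eats above or below what its size and growth predict. By the sample labels, 11 libraries came from high RFI (H-RFI, feed inefficient) and 9 from low RFI (L-RFI, feed efficient) steers. The study's own list of 9 L-RFI and 9 H-RFI steers gives the other group for 6 of them (steers 23, 33, 47, 205, 219 and 455) and leaves out steers 281 and 345, so results by both groupings are given. The column headers also carry codes whose middle digits form 3 sets, 01 (8 libraries), 03 (6) and 12 (6), and neither the labels nor the methods explain them. All 3 genes were on a list the study chose on these libraries, so that their direction between RFI groups is not independent evidence.

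The rumen is lined by a stratified, keratinised squamous epithelium. New cells arise in the basal layer, where KRT14 pairs with a type II keratin to build the filaments that anchor the cell, and cells moving up leave this programme and form cornified layers. LYPD3 is a GPI-anchored surface protein of the layers above the basal one. KDR is the main signalling receptor for vascular endothelial growth factor on endothelial cells, and in a papilla it belongs to the vessels of the connective tissue core, which carry away absorbed fatty acids.

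The libraries held between 9622534 and 13960297 reads on genes (median 11829722), and 16165 to 17657 genes had at least 1 read. In CPM (reads of a gene per 1000000 reads counted on genes), 3 reads, the limit below which a gene at 0 cannot be told from a low one, were worth 0.215 to 0.312 CPM. Steers 47, 155 and 345 gave the libraries with the fewest genes, and the main results that rest on them are also given without some or all of them. In such bulk samples fewer cells of a type and less RNA per cell cannot be told apart.

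KRT14 was close to the detection limit in this tissue. It had 105 reads in all 20 libraries together, which pooled to 0.445 CPM (95% exact Poisson interval 0.364 to 0.539, counting error only). No read was counted in steer 33, and 1 read each in steers 47, 281 and 409. Steers 219 and 271 had 3 reads each. These 6 libraries were at or under 3 reads, the median library had 5 reads (0.378 CPM), and the highest were steer 155 with 12 reads (1.03 CPM) and steer 345 with 16 reads (1.35 CPM). Most libraries could not be separated from one another, since the counting intervals were apart in 7 of 190 pairs of libraries. The variance between libraries was 2.68 times that of counting alone. Where it had a read, KRT14 ranked between 12379 and 16268 from the top of its library, with a median rank of 14983. Reads that fit several similar keratin genes may have been lost in the counting, so its level is uncertain.

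LYPD3 was low but present in every library. The fewest reads were 31, in steer 219, and the most 79, in steer 51. In CPM the lowest library was steer 271 with 2.94, the median was 4.94 and the highest was steer 51 with 6.58. The highest level was 2.24 times the lowest. It ranked between 8900 and 12625 (median 11477). The counting intervals were apart in 27 of 190 pairs, and the variance was 3.09 times that of counting, so neighbouring libraries in this order did not differ beyond their intervals, whereas the ends of the order did.

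KDR was the marker with the most reads, and it varied well beyond counting error. The libraries held 130 (steer 47) to 809 (steer 51) KDR reads. In CPM the lowest libraries were steers 47 (12.6), 345 (15.4) and 155 (15.5), followed at a distance by steer 317 (29.5), and the highest were steers 281 (65.8) and 51 (67.4). The median was 38.9 CPM and the highest level 5.35 times the lowest. After TMM scaling between libraries the range was narrower, from 17.7 CPM in steer 47 to 61.3 CPM in steer 281. Its rank ran from 3486 to 7276 (median 5375.5). The counting intervals were apart in 142 of 190 pairs, and the variance was 70.6 times that of counting. This multiple grows with the number of reads, so it does not rank the 3 genes by how much they vary. With counting error included, the SD over libraries was 73.1% of the mean CPM for KRT14, 23.7% for LYPD3 and 39.2% for KDR. Ranks and CPM are per read and not per base of transcript, since no transcript lengths of the build were used, so the order KDR, LYPD3, KRT14 is an order of reads and not of molecules.

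**Figure D1:**
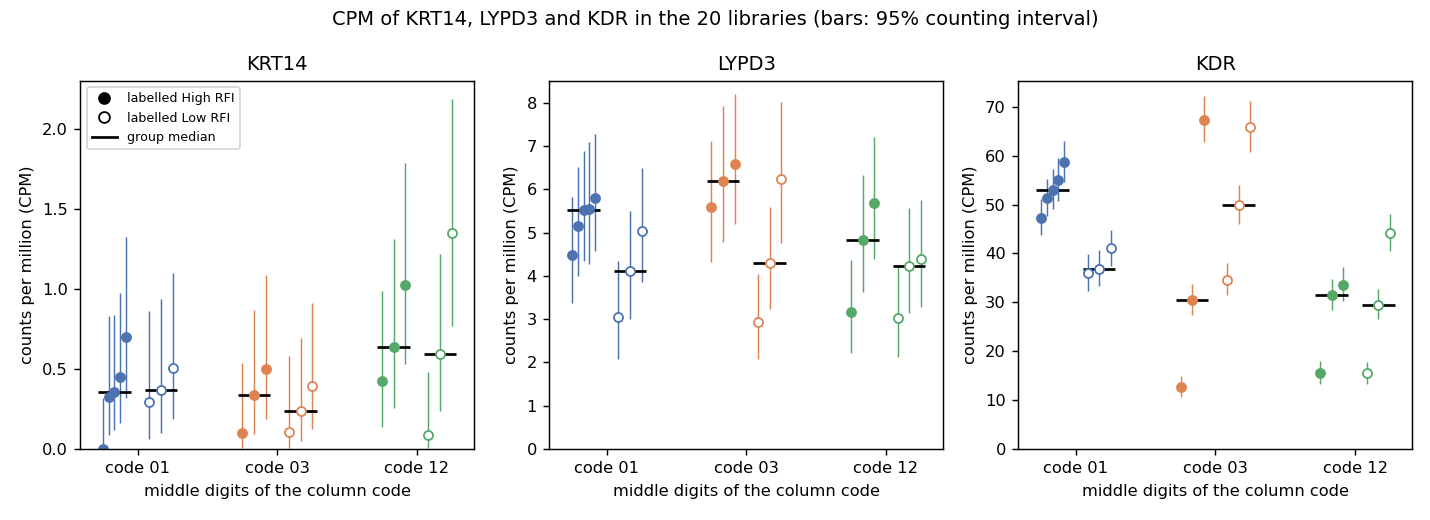
CPM of KRT14, LYPD3 and KDR (linear y axes from 0) in the 20 libraries, placed by code set and by labelled RFI group (filled H-RFI, open L-RFI); bars are 95% exact Poisson intervals and lines group medians. KRT14 stays at or below 1.35 CPM with wide intervals, LYPD3 lies between 2.94 and 6.58 CPM, and KDR spreads from 12.6 to 67.4 CPM with narrow intervals.

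Genes from lists of cell type markers were read beside the tissue label. Of 40 markers in 6 lists, 14 symbols could be tied to an identifier, 1 of them to 2 identifiers, so 15 genes were read. Identifiers came only from the study's list of genes called between RFI groups in these libraries. Markers outside that list could not be read, so the values do not test the tissue label. In the basal keratinocyte list KRT14 was the only gene with an identifier (1 of 6), and it was near 0 as described. In the differentiated keratinocyte list 5 of 11 had one, and 3 of these were as scarce as KRT14. LY6G6C was at 3 reads or fewer in all 20 libraries and at 0 in 13. ZNF750, a transcription factor of epidermal differentiation, was at 3 reads or fewer in 18 (median 0.0851 CPM). PKP1, a plakophilin of the desmosomes that join squamous cells, lay between 0.0914 and 0.831 CPM (median 0.337). PKP3, a plakophilin also found in simple epithelia, was well above them at 17.7 to 55.0 CPM (median 25.1). Of the keratinocyte markers read, KRT14, PKP1, ZNF750 and LY6G6C were thus at or near 0 in these libraries, which are labelled as rumen epithelial tissue. Other markers of these lists, such as KRT5, KRT4, KRT13, KRT10, IVL and DSG1, had no identifier and were not read. LYPD3 and PKP3 were the members of the 2 keratinocyte lists with more than 3 reads in every library.

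Markers shared by epithelia of many kinds were present. RAB25, a small GTPase of epithelial vesicle traffic, had a median of 21.2 CPM, the polarity gene LLGL2 30.2 CPM and the membrane raft protein MALL 59.9 CPM. SCNN1A, a subunit of the epithelial sodium channel, was lower and uneven, with 0.342 to 14.6 CPM (median 1.47). KDR was the only endothelial marker with an identifier (1 of 6). Among the markers of smooth muscle and fibroblasts, MYL9, the regulatory light chain of smooth muscle myosin, had a median of 390 CPM and VASN, a protein of vascular smooth muscle, 20.6 CPM. TMSB4, an actin-binding peptide gene abundant in leukocytes and in many other cells, had 997 and 650 CPM for its 2 identifiers. None of these values gives a share of cells.

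**Figure D2:**
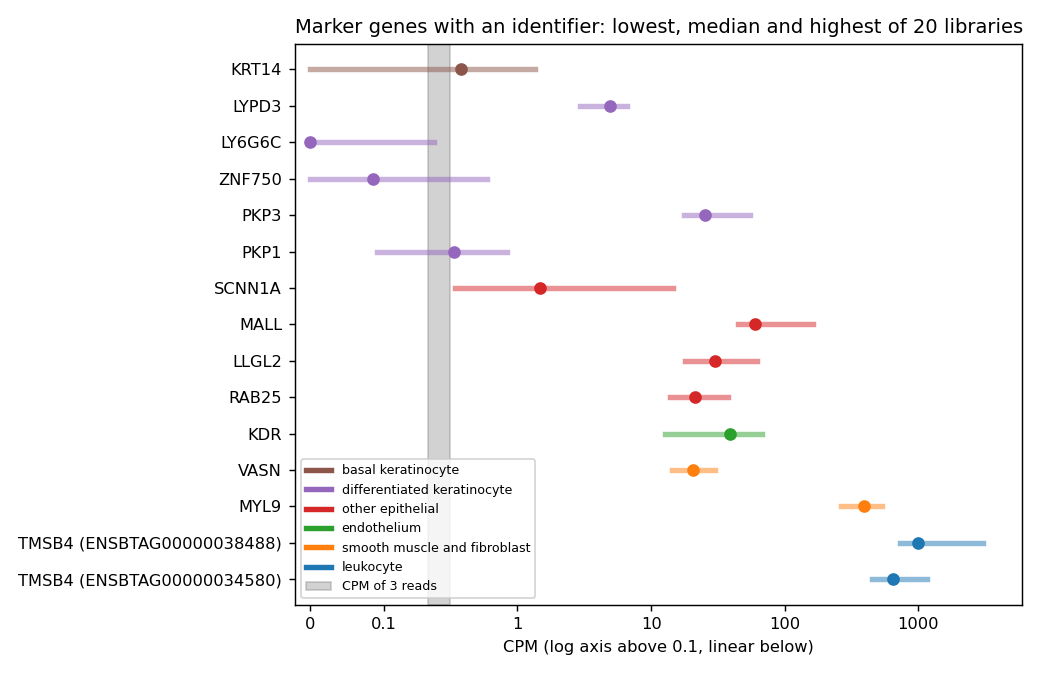
Lowest, median (point) and highest CPM over the 20 libraries for the 15 marker genes with an identifier, coloured by list, on an x axis that is logarithmic above 0.1 CPM and linear below; the grey band is the CPM that 3 reads are worth (0.215 to 0.312). KRT14, PKP1, ZNF750 and LY6G6C reach into or below the band, while LYPD3, PKP3 and KDR stay above it in every library.

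The first comparison was between the RFI groups. No difference of a keratinocyte marker or of KDR between labelled L-RFI and H-RFI steers reached an adjusted p under 0.05. Of the 3 genes, LYPD3 and KDR passed the filter on low values (2 of 3) and were tested with limma on log2(CPM + 1) after TMM scaling. The same test called 0 of 14293 genes (0% of those tested), and 154 genes (1.08%) had an unadjusted p under 0.05. On the recovered reads, edgeR's quasi-likelihood test and DESeq2 also called 0 genes, with 163 and 316 unadjusted.

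LYPD3 was lower in the labelled L-RFI group without passing the adjusted test. The L-RFI libraries ran from 2.94 to 6.24 CPM (median 4.22) and the H-RFI libraries from 3.16 to 6.58 CPM (median 5.55). The ranges overlapped nearly throughout, and 8 of 9 L-RFI libraries were below the H-RFI median. The means were 4.15 ± 1.07 CPM (SD, n = 9) and 5.32 ± 0.924 CPM (SD, n = 11). The log2 fold change was -0.31 (SE 0.14), with limma's p = 0.0397 and adjusted p = 1.00, and a two-sided exact permutation test over all 167960 splits of the unscaled log2 values gave p = 0.0193. Over 11 alternatives the adjusted p lay between 0.643 and 1.00. With the groups of the study's own list the difference shrank to -0.08 (SE 0.17, limma p = 0.657), and an exact permutation test of the unscaled log2 values gave p = 0.633. The L-RFI libraries of that list had 4.61 ± 1.16 CPM and its H-RFI libraries 4.88 ± 1.17 CPM (SD, n = 9 each). Within the code sets the labelled difference on the unscaled log2 scale was -0.33 in set 01, -0.42 in set 03 and -0.17 in set 12 (exact permutation tests, p = 0.0357, 0.3 and 0.5, where 0.0179, 0.1 and 0.1 are the smallest possible). By the study's list they were 0.17, -0.41 and -0.23 (exact permutation tests, p = 0.4, 0.3 and 0.4), so the sign in set 01 turned.

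KDR did not separate the RFI groups. The labelled H-RFI libraries ran from 12.6 to 67.4 CPM (median 47.3) and the L-RFI libraries from 15.4 to 65.8 CPM (median 36.8), so that each group spanned nearly the whole range. The log2 fold change was -0.01 (SE 0.21, limma adjusted p = 1.00) by the labels and 0.01 (SE 0.20, limma adjusted p = 1.00) by the study's list. Within the sets its sign was not shared. In set 01 the 3 L-RFI libraries (35.9 to 41.0 CPM) lay below the 5 H-RFI libraries (47.3 to 58.6 CPM) with no overlap, a difference of -0.47 on the unscaled log2 scale (exact permutation test, p = 0.0179, the smallest possible for 3 against 5). Such a separation with L-RFI lower was found in that set for 7.04% of the 14293 genes. The number of genes with a read separated the same libraries, with 17088 to 17299 in L-RFI and 17397 to 17657 in H-RFI, and its part in the KDR difference was not tested. In sets 03 and 12 the differences were 0.68 and 0.10 (exact permutation tests, p = 0.5 and 1.0) and the ranges overlapped. Whether the sets differ in this was not tested. In set 01, 5 steers have the other group on the study's list. By that list its L-RFI libraries had 36.8 to 58.6 CPM and its H-RFI libraries 35.9 to 53.0 CPM, which overlapped, and the differences in sets 01, 03 and 12 were 0.12, -0.67 and 0.49 (exact permutation tests, p = 0.571, 0.6 and 0.6).

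KRT14 failed the filter and was compared mainly by exact permutation. It had 0 to 1.03 CPM in the 11 H-RFI libraries (median 0.424) and 0.0867 to 1.35 CPM in the 9 L-RFI libraries (median 0.366). By exact permutation (two-sided), the difference in mean log2(CPM + 1) was -0.02 (p = 0.901) with the labels and -0.18 (p = 0.126, over 48620 splits) with the study's list. Without the filter limma gave a log2 fold change of 0.00 (SE 0.15, p = 0.983) and DESeq2 0.02 (SE 0.52, p = 0.964).

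**Figure D3:**
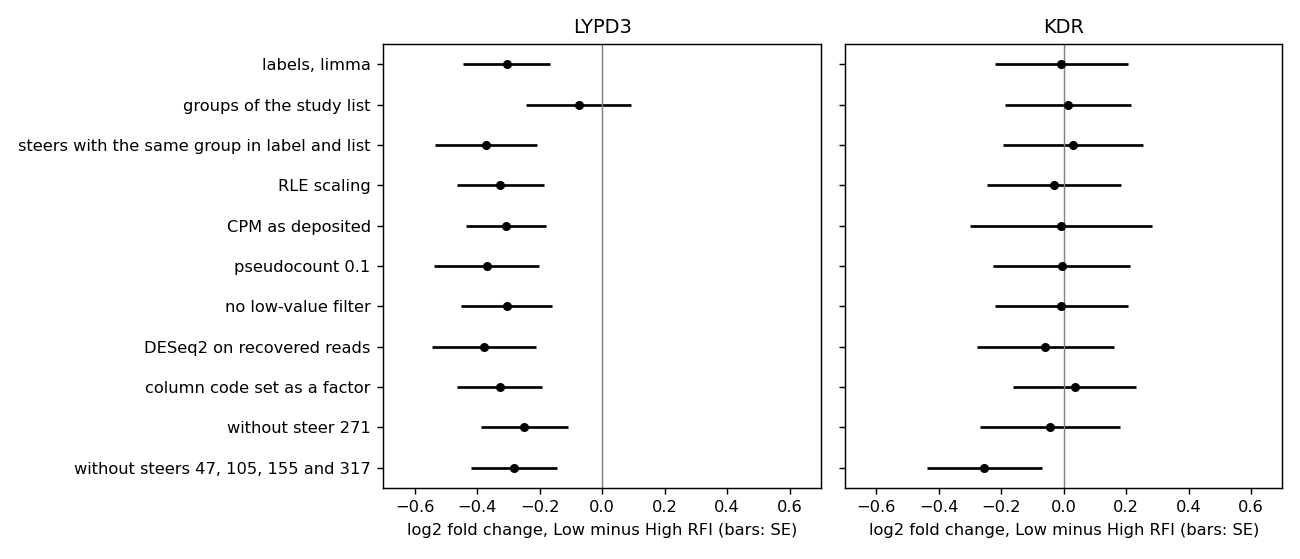
Log2 fold change (L-RFI minus H-RFI, x axis, on log2(CPM + 1) except DESeq2 and the row with a pseudocount of 0.1) of LYPD3 and KDR with its SE under the analysis by labels and under its alternatives that give an SE (rows). LYPD3 lies below 0 in every row but moves to -0.08 with the groups of the study's list, and KDR stays within 0.06 of 0 except without steers 47, 105, 155 and 317, where it is -0.25.

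The ratios between the genes ask whether the balance of basal, differentiated and endothelial transcripts shifted with RFI. None of the 3 ratios differed at an adjusted p under 0.05. Each difference is that of the first gene minus that of the second, so the ratios are not separate from the results above. The 1 added to each CPM exceeds the KRT14 median of 0.378 CPM, so the ratios with KRT14 could hardly show a shift of basal transcripts. In log2 units of unscaled CPM + 1, L-RFI minus H-RFI by label, KRT14 over LYPD3 differed by 0.29 (exact permutation test, p = 0.159, adjusted over 3 ratios 0.477). KRT14 over KDR differed by -0.01 (exact permutation p = 0.982, adjusted 0.982). LYPD3 over KDR differed by -0.30 (exact permutation p = 0.340, adjusted 0.511). By the study's list the 3 differences were -0.11, -0.21 and -0.10 (exact permutation p = 0.583, 0.548 and 0.778).

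Many more genes differed between the code sets than between RFI groups. Limma's F test over the 3 sets called 7724 of 14293 genes (54%), and set 12 differed from set 01 in 8955 genes (62.7%), 32% higher and 30.7% lower. Set 03 differed from set 01 in 53 genes (0.371%). The F test called 461 genes without steers 47, 105, 155 and 317 and 218 without steers 155 and 345. Unscaled CPM moved the median of all genes between sets 12 and 01 to -0.23 on the log2 scale, against 0.01 after TMM scaling, and the calls between them to 2905 higher and 5585 lower.

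KDR followed this division in part. It had 35.9 to 58.6 CPM in set 01 (median 49.3), 12.6 to 67.4 in set 03 (median 42.3) and 15.4 to 44.1 in set 12 (median 30.5), with overlap between all sets. Set 12 was lower than set 01 by a log2 fold change of -0.54 (SE 0.23, limma adjusted p = 0.0470). Over 8 alternatives the adjusted p ran from 0.0316 to 0.348 and missed 0.05 in 5 of them. Without steers 155 and 345 it was -0.28 (SE 0.24, limma adjusted p = 0.348), and the number of genes called between these sets then fell from 8955 to 1922. The F test over all 3 sets did not call KDR (limma adjusted p = 0.120).

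Other markers moved between the same sets. Of the markers tested, beside 32% of all genes, both smooth muscle and fibroblast genes and both TMSB4 identifiers were higher in set 12 than in set 01. The log2 fold changes were 0.86 for MYL9 (SE 0.15, limma adjusted p = 0.00185) and 0.64 for VASN (SE 0.17, limma adjusted p = 0.00449). For TMSB4 they were 1.23 and 1.00 (SE 0.34 and 0.24, limma adjusted p = 0.00571 and 0.00326). The genes called are 2 of 7 markers of the first list and 1 of 4 of the leukocyte list, the others having no identifier. RAB25 was higher by 0.98 (SE 0.20, limma adjusted p = 0.00247), 1 of 4 genes tested of its list. Whether these calls hold without steers 155 and 345 was not examined. In unscaled CPM, MYL9 and VASN summed to 284 to 421 CPM in set 01 and 474 to 552 CPM in set 12, most of it MYL9. The 2 TMSB4 identifiers summed to 1290 to 1764 and 1776 to 3764 CPM. How many of all genes had ranges apart between these sets was not counted. These sums rest on few genes and do not show a shift of a cell type. The part of these genes in the KDR difference was not tested. LYPD3 and PKP3 were not called between sets 12 and 01 (log2 fold changes 0.06 and 0.38, limma adjusted p = 0.790 and 0.144), with SEs of 0.18 and 0.22. KRT14 was 0.27 higher in set 12 on the unscaled log2 scale (0.686 ± 0.446 CPM, SD, n = 6, against 0.374 ± 0.198 CPM, n = 8; exact permutation p = 0.129; limma on TMM-scaled values without the filter 0.38, SE 0.15, adjusted p = 0.0502), and on the unscaled scale 0.06 higher without steers 155 and 345 (exact permutation p = 0.707).

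Across the 20 libraries, KDR rose with the number of genes detected. In CPM as deposited, on the log2 scale, its r with the genes that had a read was 0.925 (Spearman's rho 0.884), and without the libraries farthest from the median, steers 47 and 155, r was 0.852. Both permutation tests gave p = 1e-05, the smallest that 100000 permutations can give, and adjusted over 9 relations 4.5e-05. Without steers 47, 155 and 345 r was 0.772 (rho 0.814, permutation p = 0.00056 and 0.00016). Within sets 01, 03 and 12 r was 0.869, 0.921 and 0.991. After TMM scaling r was 0.885 (rho 0.832) over all libraries and 0.669 (rho 0.728) without those 3. KDR was 1 of many genes in this, since 9.20% of the 14293 genes had an r as high in CPM as deposited and 13.8% after TMM scaling. Without steers 47, 155 and 345 these shares were 19.4% and 20.8%. With the TMM scaling factor of the library, KDR had r = 0.959 (rho 0.932) as deposited and 0.921 (rho 0.865) after TMM scaling. The factor is computed from the same reads, so a positive r in CPM as deposited is partly built in. For that factor 9.08% and 13.6% of the genes had an r as high. The 3 libraries with the fewest genes were also the 3 lowest in KDR. KDR did not follow total reads (r = 0.251, rho 0.283, permutation p = 0.285 and 0.225, adjusted 0.428 and 0.507). For KRT14 and LYPD3, r with the genes that had a read was -0.266 and 0.0987 (rho -0.192 and 0.146, permutation p = 0.257 and 0.684 for r, adjusted 0.428 and 0.769).

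**Figure D4:**
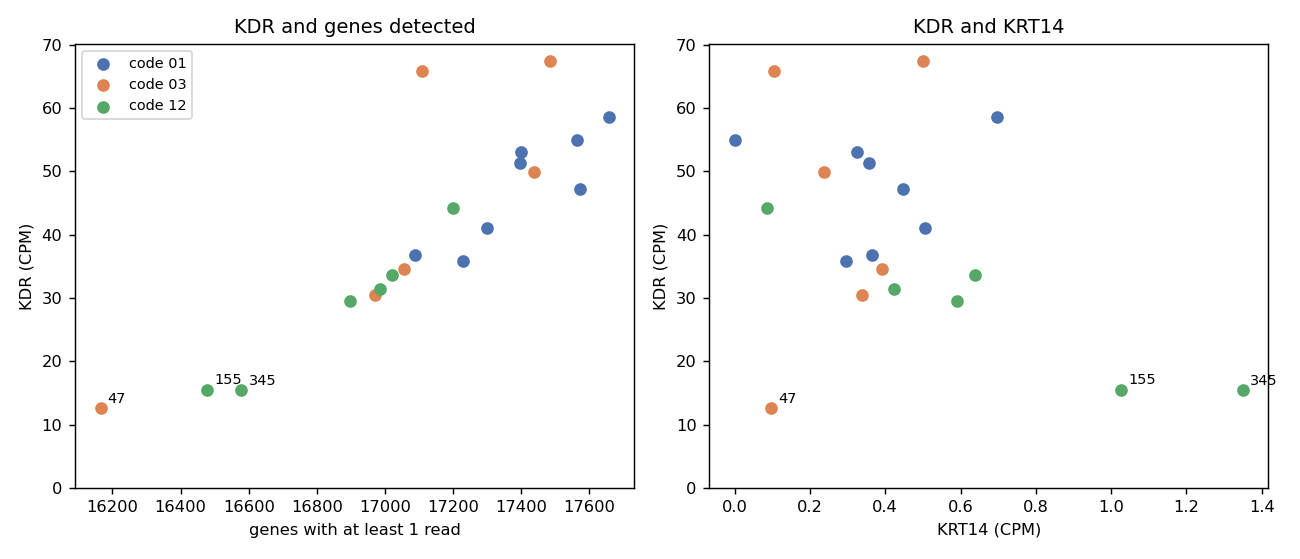
KDR (CPM, y axis from 0) against how many genes had a read (left) and against KRT14 (CPM, right), 1 point per library, coloured by code set, with steers 47, 155 and 345 marked. KDR climbs with the genes detected in all 3 sets, and steers 155 and 345 combine the highest KRT14 with KDR near 15.4 CPM.

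The 3 markers did not rise and fall together. After TMM scaling, KRT14 and LYPD3 had r = 0.0703 (rho 0.144, permutation p = 0.764 and 0.545) and LYPD3 and KDR r = -0.251 (rho -0.0857, permutation p = 0.285 and 0.718). The first sign turned without scaling (r = -0.133), and so did the second (r = 0.216). KRT14 and KDR had r = -0.549 (permutation p = 0.0130, adjusted over 3 pairs 0.0390) and rho = -0.395 (permutation p = 0.0859, adjusted 0.258). Among the r of KRT14 with 14293 genes, that with KDR ranked 12938 from the highest, and their 5th percentile was -0.583. Many genes thus had an r with KRT14 as low as that of KDR. Without steers 155 and 345, the libraries farthest from the KRT14 median, r was -0.0940 (permutation p = 0.715), and the relation no longer held. It depended on which libraries were left out. Without steer 155 alone r was -0.437, without steer 345 alone -0.389 and without steers 47, 155 and 345 -0.417 (permutation p = 0.0696, 0.103 and 0.0975), whereas without steers 47, 105, 155 and 317 it was -0.695 (permutation p = 0.00825, adjusted 0.0247). Within set 12, which holds steers 155 and 345, r was -0.978 (exact permutation p = 0.00139, n = 6) and rho -1.0 (exact permutation p = 0.00278). The other 4 libraries of the set (steers 409, 105, 115 and 317) had TMM-scaled KRT14 of 0.0824, 0.462, 0.631 and 0.652 CPM beside KDR of 41.9, 34.3, 33.2 and 32.6 CPM. Their KRT14 values rest on 1, 5, 7 and 7 reads with overlapping counting intervals. Their order in KRT14 is therefore not resolved, and 4 libraries are too few for an r. In the other sets r was -0.0638 in set 01 (exact permutation p = 0.894, n = 8) and 0.147 in set 03 (exact permutation p = 0.801, n = 6). LYPD3 and KDR had r = 0.731 in set 01 (exact permutation p = 0.0214, adjusted 0.0641, n = 8), -0.496 in set 03 and -0.310 in set 12.

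The genes most like each marker were sought by Pearson's r of TMM-scaled log2(CPM + 1) over the 20 libraries, among those that could be named, and are given as a description. For KRT14 the highest were YPEL3 (r = 0.65), SH3GLB2, an endophilin (0.63), and CCAR1, a regulator of cell cycle and apoptosis (0.62), out of 106 named genes. The lowest were APBB2, an adaptor that binds the amyloid precursor protein (-0.63), and VPS13D, a lipid transfer protein (-0.61). For LYPD3, out of 105 named genes, they were SHISA5 (0.72), the lysophospholipid acyltransferase gene MBOAT7 (0.69) and the actin-severing protein gene DSTN (0.64), with the transcription factor gene GTF2I (-0.60) and the SUMO protease gene SENP7 (-0.54) at the other end. For KDR they were the golgin gene GCC2 (0.90), the transcriptional coregulator gene HCFC1 (0.87) and CCDC186 (0.87), and at the other end the ribosomal protein gene RPS15 (-0.92).

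These values differ in what they stand among. KDR had r above 0.8 with 3110 of 14292 genes and below -0.8 with 2840, so GCC2 was the 421st gene from the top. LYPD3 had r above 0.8 with 4 genes and below -0.8 with 0, and SHISA5 was the 30th. KRT14 had no gene beyond 0.8 in either direction, its highest r over 14293 genes being 0.78 and its lowest -0.78. Among the markers, the r of KDR with TMSB4 was -0.90 and -0.85, with MYL9 -0.82 and with VASN -0.73.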

How the data were processed

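RNA-seq of rumen papillae from 20 steers was analysed. The authors deposited CPM per Ensembl gene, 1 file per library, from paired reads (unstranded TruSeq kit) aligned to UMD3.1 with TopHat2 2.0.10 and counted with HTSeq-count (the submitters' processing notes also name CASAVA 1.8). Values for a gene and an antisense partner cannot be told apart. All CPM above 0 (100.0%, tolerance 0.01 reads) came out as whole multiples of the value of 1 read, and reads were recovered in this way. The members, the marker lists and the tests were chosen with earlier results of these data known. Groups came from the sample labels. The tests were limma 3.58.1 with trend (R 4.3.3) on log2(TMM CPM + 1) for the 14293 genes past edgeR's filterByExpr (minimum count 10), adjusted by Benjamini-Hochberg at 0.05. A fold change on this scale understates that of low genes. edgeR 4.0.16 and DESeq2 1.42.0 were run on the recovered reads. Single values were compared by exact permutation (for KRT14 this was added after it failed the filter), correlations by 100000 permutations or, under 10 libraries, all pairings (Python 3.11.15, numpy 2.4.6, scipy 1.17.1). The models were tested on simulated data. Symbols came from the study's list of genes (112 identifiers), because 0 identifiers occur in the reference table used here, and no sequences or lengths were used. The genes named beside the 3 markers were, by rule, the 3 highest and 2 lowest in r with each among named genes, and the marker lists; 1 gene chosen by this rule is not reported here. P-values measure the spread between steers, 1 library each, and no 2 libraries were identical.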

Additional observations from a re-analysis of the deposited data

Results flagged for a closer look

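In the labelled L-RFI group, KRT14 in steer 345 stood apart from the other 8 libraries at 1.35 CPM, where the next was steer 317 at 0.590 CPM. The gap was 0.601 of the whole range, above Dixon's 95% critical value for 9 samples. It was the only one found among 12 groups of 4 to 10 libraries examined. Chance gives about 1 in every 20 groups, so 1 among 12 is not rare. The value rests on 16 reads (95% exact Poisson interval 0.772 to 2.19 CPM), which overlaps the interval of steer 317 (7 reads, 0.237 to 1.22 CPM). The library of steer 345 was also among the 3 with the fewest genes and the lowest KDR (15.4 CPM). Steer 345 is not on the study's list of L-RFI and H-RFI steers.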

How the results depend on the processing

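Over 139 alternatives to 21 results, 110 were classed as the same. For fold changes, ratios and correlations this meant the same direction and the same side of the threshold. Counts of genes and median CPM have neither, and they could change somewhat and still be in this class. With the study's groups, the KDR change between RFI groups turned to 0.0140 and the KRT14/LYPD3 ratio to -0.11. With steers of the same group in both sources KDR was at 0.0294, and with the code set as a factor at 0.0354. The KRT14/KDR ratio turned to 0.0662 without steer 271 and to 0.31 without steers 47, 105, 155 and 317, which clustered apart in an earlier analysis. None of these passed the threshold in either form. Without the latter 4 steers LYPD3 between sets 12 and 01 was -0.0597, KDR between sets 03 and 01 was 0.0576, and r of LYPD3 and KDR was 0.0608. Unscaled, LYPD3 between sets 12 and 01 was -0.17, r of KRT14 and LYPD3 -0.133 and r of LYPD3 and KDR 0.216. TMM-scaled, the last was 0.130 without steers 47 and 271, the farthest from the LYPD3 median. The KDR difference between sets 12 and 01 missed the threshold at -0.54 without the low-value filter, -0.53 with edgeR, -0.54 with RFI as a factor, -0.52 without the 4 steers and -0.28 without steers 155 and 345. Without the filter limma's p for KDR was 0.0294, against 0.0291 with it, and was adjusted over 20064 genes instead of 14293. The F test over the sets called 461 genes without the 4 steers and 218 without steers 155 and 345, and set 12 against 01 called 1922 without the latter. Set 03 against 01 called 101 genes with edgeR and 83 without steers 155 and 345. The r of KRT14 and KDR was -0.419 unscaled, -0.469 with a pseudocount of 0.1, -0.420 after subtracting set means, -0.319 over the 18 listed steers, -0.695 without the 4 steers and -0.0940 without steers 155 and 345. Leaving out steers 47, 155 and 345 in part or together, TMM-scaled KDR beside genes detected and the study's groups within sets were chosen after seeing the data. Fewer libraries were fitted wherever steers were left out; for the other changes the cause was not tested. No paired analysis was possible because the labels give no replicate numbers shared between groups. KRT14 had at most 16 reads a library, which limits its precision beside the spread between steers.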
